A study of Mus musculus with 19 samples.

Results

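The 10 genes described here encode 9 chemokines that recruit leukocytes (Cxcl1, Cxcl2, Cxcl5, Cxcl9, Cxcl12, Cxcl16, Ccl2, Ccl5 and Ccl7) and the macrophage growth factor Csf1. They were chosen by name, as the rows of the count table whose Ensembl identifiers map to these symbols, and make up 10 of its 39017 genes. All 10 passed the filter on low counts. RNA came from E0771, an established carcinoma line of the mouse mammary gland. The cells carried the red fluorescent protein mCherry and were placed in the mammary fat pad of c57bl6 mice, and mCherry-positive cells were later sorted from the dissociated tumors. The groups were lean mice (titled Chow) at midpoint, day 14 (4 libraries), obese mice (titled HFD) at midpoint (5), lean mice at endpoint, day 21 (5, of which 4 were used), and obese mice at endpoint (5). All groups share the cell line, the mCherry label, the strain, the implantation site and the sort. All tumors come from this 1 line, and the ages of the mice and the length of feeding were not given in the sources used here.

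Chemokines are small secreted proteins that guide leukocytes along a gradient through G protein-coupled receptors. Cxcl1, Cxcl2 and Cxcl5 act through Cxcr2 and draw neutrophils, Ccl2 and Ccl7 draw monocytes through Ccr2, and Ccl5 draws T cells and monocytes. Cxcl9 is induced by interferon-gamma and draws T cells through Cxcr3, Cxcl16 is a membrane-anchored ligand of Cxcr6, and Cxcl12 is the ligand of Cxcr4. Csf1 supports the survival and growth of macrophages through Csf1r, and carcinoma cells are a known source of Ccl2 and Csf1 in mammary tumors.

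In the mouse build mm10, Cxcl5 (ENSMUSG00000029371), Cxcl1 (ENSMUSG00000029380) and Cxcl2 (ENSMUSG00000058427) lie close together on the plus strand of chromosome 5, from 90759299 to 90761625, 90891241 to 90893115 and 90903899 to 90905909. Cxcl9 (ENSMUSG00000029417) lies on the minus strand of the same chromosome, from 92321331 to 92328079. Ccl2 (ENSMUSG00000035385) and Ccl7 (ENSMUSG00000035373) are neighbours on the plus strand of chromosome 11, from 82035571 to 82037453 and 82045712 to 82047525. Ccl5 (ENSMUSG00000035042) and Cxcl16 (ENSMUSG00000018920) lie on its minus strand, from 83525778 to 83530518 and 70453983 to 70459984. Cxcl12 (ENSMUSG00000061353) lies on the plus strand of chromosome 6, from 117168535 to 117181367. Csf1 (ENSMUSG00000014599) lies on the minus strand of chromosome 3, from 107741048 to 107760469. The GC content of the longest transcript ranged from 41.3% in Cxcl5 to 54.4% in Csf1.

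The promoters of Cxcl1 and Cxcl2 are shown because the levels of these neighbouring genes moved together across the libraries and both promoters hold the same perfect NF-kB site. Moving together was not particular to this pair. Pearson's r of log2 CPM over 18 libraries was 0.915 for Cxcl2 with Cxcl1, 0.925 with Ccl2 and 0.905 with Csf1. Whether the site bears on the levels was not tested. NF-kB is the transcription factor that drives many inflammatory genes. The RefSeq promoter table (GRCm38.p6) matched 5 of the 10 members, and the 240 bases that end 11 bases before each start were compared. The longest run of bases shared by the windows of Cxcl1 and Cxcl2 is 14 bases long, GGGAATTTCCCTGG, and its first 10 bases, GGGAATTTCC, are the NF-kB site. It was singled out after the sequences had been seen. Capitals mark the site. The sequences are chr5:90890995-90891234 and chr5:90903649-90903888, both on the plus strand.

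Cxcl1: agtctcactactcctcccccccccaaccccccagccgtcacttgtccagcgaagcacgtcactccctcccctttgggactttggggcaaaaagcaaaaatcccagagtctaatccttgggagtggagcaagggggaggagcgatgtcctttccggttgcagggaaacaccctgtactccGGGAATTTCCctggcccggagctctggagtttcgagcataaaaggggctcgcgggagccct

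Cxcl2: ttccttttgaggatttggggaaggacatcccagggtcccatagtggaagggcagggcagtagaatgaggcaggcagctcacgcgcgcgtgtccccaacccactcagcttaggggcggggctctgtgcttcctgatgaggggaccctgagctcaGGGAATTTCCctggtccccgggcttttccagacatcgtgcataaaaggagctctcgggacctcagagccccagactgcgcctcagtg

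The match lay 71 to 62 bases before the start of Cxcl1 and 97 to 88 bases before that of Cxcl2. On either strand, the letters of the site occurred in 28 of 32851 promoter windows of the same length (0.0852%), and not in the windows of Cxcl9, Cxcl12 and Csf1. Only these exact letters were searched, so windows without them may hold other forms of an NF-kB site. The whole run of 14 bases occurred in 2 windows (0.00609%), those of Cxcl1 and Cxcl2.

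The 18 libraries used held 44174080 to 56996252 counts each. Lean endpoint replicate 4 held 11889188 counts, which stop on chromosome 5 after a gene that starts at 104459450, and was left out. Levels are CPM, counts scaled to library size by the TMM method, as means with SD over libraries. In each library log2 CPM followed the GC content of genes to a different degree. The slope per 10 percentage points was 0.106 to 0.443 in lean and 0.326 to 1.52 in obese midpoint libraries, and -0.874 to -0.0643 in lean and -0.874 to -0.419 in obese endpoint libraries. The share of counts on the mitochondrial genome was 5.79% to 12.3% at midpoint and 17.1% to 44.7% at endpoint. For this reason each comparison is also given after a correction for GC content and length. None of 9 pan-leukocyte markers was at 0 in all libraries, and their summed level was 165 to 315 CPM in lean and 137 to 264 CPM in obese midpoint libraries, and 132 to 199 CPM and 99.6 to 377 CPM at endpoint. Of 6 epithelial markers, 5 (Krt18, Krt7, Krt19, Epcam and Cdh1) were under 1 CPM in all 18 libraries, and Krt8 was above it. Of 12 fibroblast markers, 2 (Fap and Fbln1) were under 1 CPM in all 18. Their summed level was 4550 to 6410 CPM in lean and 3700 to 7390 CPM in obese midpoint libraries, and 3960 to 5260 CPM and 4170 to 6180 CPM at endpoint. A few genes carried this sum. In lean midpoint libraries it averaged 5390 CPM, with Col6a3 at 3130 and Col3a1 at 1790 CPM. Col1a1, Col1a2, Dcn, Lum, Postn and Thy1 had means of only 0.241 to 6.1 CPM there. Which cells this RNA came from was not tested.

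Levels of the members spanned a wide range. Per kilobase of exon, Ccl2 had the highest mean over the 18 libraries (525 CPM per kb), followed by Ccl7 (391), Cxcl1 (370), Csf1 (69.1), Cxcl2 (23.5), Cxcl9 (8.96), Ccl5 (7.83), Cxcl16 (3.96), Cxcl5 (0.74) and Cxcl12 (0.0122). Some neighbours in this order could not be separated: Ccl7 exceeded Cxcl1 in 10 of 18 libraries, and Cxcl9 exceeded Ccl5 in 9 of 18. Ccl2 exceeded Ccl7 in 14 of 18, and Cxcl2 exceeded Cxcl9 in 16 of 18, as Ccl5 did Cxcl16. Cxcl1 exceeded Csf1, Csf1 exceeded Cxcl2, Cxcl16 exceeded Cxcl5 and Cxcl5 exceeded Cxcl12 in all 18. Among all 37 chemokine ligand genes in the table, of which 27 were tested, Ccl2, Ccl7 and Cxcl1 ranked highest on this per-kilobase scale. Cxcl10, an interferon-induced ligand of Cxcr3 that is not a member, ranked next at 45.4 CPM per kb.

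**Figure D1:**
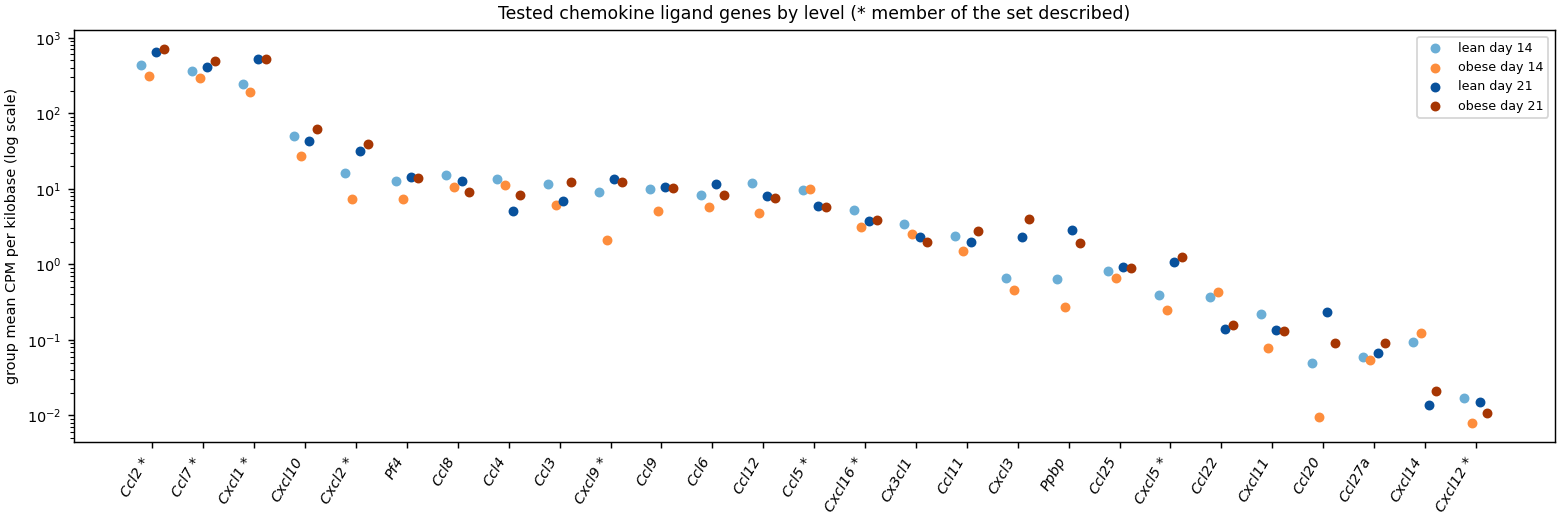
Group mean level (CPM per kilobase of exon, log axis) of the 27 tested chemokine ligand genes, ordered by their mean over 18 libraries, with 1 point per group and members marked by an asterisk. Ccl2, Ccl7 and Cxcl1 stand above all others, and Cxcl12 is the lowest.

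The first comparison set obese beside lean tumors at midpoint, for how obesity of the host relates to the cancer cells. The transcripts of 3 members, Cxcl2, Ccl2 and Cxcl9, were lower in obese tumors, and none was higher. Log2 fold changes were below 0 for 9 of the 10, with a median of -0.58, against a median of 0.00 over all genes tested. After the correction for GC content and length they were below 0 for 6 of the 10, with a median of -0.32 against 0.06. In the quasi-likelihood test of edgeR, adjusted by Benjamini-Hochberg over all 16352 genes, 3 of 10 members passed as lower and 0 as higher, where 12.8% of all genes passed as lower and 16.7% as higher.

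Among the neutrophil attractants, Cxcl2 was at 14.0, 9.53, 28.7 and 16.4 CPM in the lean midpoint libraries and at 5.61, 8.78, 7.63, 8.09 and 8.47 CPM in the obese ones. Every obese library lay below every lean one. The log2 fold change was -1.15 ± 0.35 (SE; adjusted p = 0.0311, edgeR, Benjamini-Hochberg), from 17.2 ± 8.21 (SD, n = 4) to 7.72 ± 1.25 CPM (SD, n = 5). Its neighbour Cxcl1 was at 205, 146, 279 and 295 CPM in lean and at 83.1, 215, 166, 216 and 245 CPM in obese libraries. These groups overlapped, and obese replicate 1 was the lowest library. The change of Cxcl1 was -0.32 ± 0.29 (SE; edgeR adjusted p = 0.385). Cxcl5 was low throughout, at 0.309 to 0.919 CPM in lean and 0.244 to 0.548 CPM in obese libraries (-0.64 ± 0.48, SE; edgeR adjusted p = 0.297).

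Of the monocyte attractants, Ccl2 was at 394, 436, 681 and 486 CPM in lean and at 359, 276, 398, 387 and 326 CPM in obese midpoint libraries. The groups met only at their edges, where obese replicate 3 lay just above lean replicate 1. Ccl2 fell by 0.52 ± 0.17 on the log2 scale (SE; edgeR adjusted p = 0.036), from 499 ± 127 (SD, n = 4) to 349 ± 49.4 CPM (SD, n = 5). Ccl7, next to it in the genome, was at 256, 240, 321 and 364 CPM in lean and at 137, 199, 322, 266 and 238 CPM in obese libraries. These ranges overlapped widely, with a change of -0.34 ± 0.22 (SE; edgeR adjusted p = 0.223). Ccl5 was at 8.44 to 10.7 CPM in lean and 7.04 to 12.8 CPM in obese libraries (0.02 ± 0.31, SE; edgeR adjusted p = 0.964).

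Cxcl9, the T cell attractant induced by interferon-gamma, was at 15.7, 23.9, 47.1 and 17.7 CPM in lean and at 19.6, 2.18, 2.90, 2.19 and 3.70 CPM in obese midpoint libraries. Obese replicate 1 lay within the lean range, and the other 4 obese libraries lay far below it. The log2 fold change was -2.09 ± 0.71 (SE; edgeR adjusted p = 0.0384), and without obese replicate 1 it was -3.25 (edgeR adjusted p = 0.00175). The GC slope of that replicate (0.326) lay within the lean midpoint range of 0.106 to 0.443. The other obese midpoint libraries had slopes of 0.666 to 1.52. Without obese replicate 1, diet and GC trend therefore cannot be told apart at midpoint. Cxcl16 was at 19.5, 17.1, 18.8 and 7.90 CPM in lean and at 8.13, 10.6, 14.0, 6.94 and 7.75 CPM in obese libraries. The lean libraries stood above the obese ones except for replicate 4, and the change of -0.74 ± 0.33 (SE) did not pass (edgeR adjusted p = 0.0895). Without lean midpoint replicate 4 it was -1.01 and passed (edgeR adjusted p = 0.0321).

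Cxcl12 had 0 to 16 counts in a midpoint library and is near the floor of these data (-1.01 ± 0.84, SE; edgeR adjusted p = 0.345). Csf1 was at 352, 254, 359 and 301 CPM in lean and at 226, 278, 265, 348 and 291 CPM in obese libraries. The groups overlapped, with a change of -0.17 ± 0.17 (SE; edgeR adjusted p = 0.442).

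After the correction for GC content and length, 0 of 10 members passed by edgeR at midpoint, where 8.28% of all genes passed as higher and 3.63% as lower. At unadjusted p under 0.05, 2 of the 10 members did (Cxcl9 and Csf1), as did 5205 of all 16352 genes. Cxcl9 had -1.64 ± 0.59 (SE; edgeR adjusted p = 0.0693), Cxcl2 had -0.61 ± 0.36 (SE; edgeR adjusted p = 0.254) and Ccl2 had 0.04 ± 0.18 (SE; edgeR adjusted p = 0.911). All 3 calls were also lost without lean replicate 2 or 3 or obese replicate 2 or 3 (adjusted p of 0.0886 to 0.151 in edgeR). The call of Cxcl9 was lost without obese replicate 4 (0.0611) or 5 (0.0729), and that of Ccl2 without obese replicate 5 (0.0672). With the compared groups alone, 0 members passed, as did 0% of all genes in each direction, so the loss is not particular to the members.

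**Figure D2:**
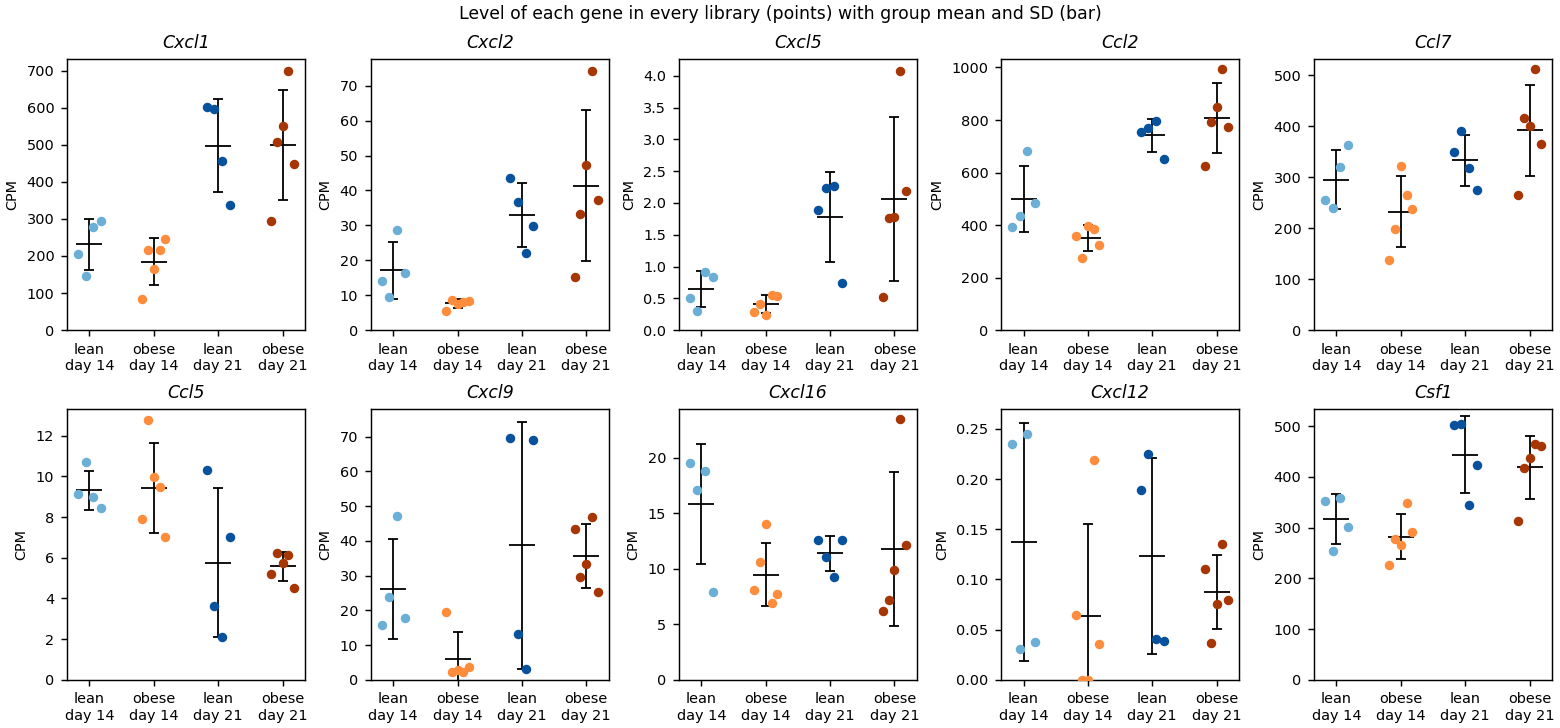
Level (CPM, linear axes from 0) of each of the 10 genes in every library, with 1 point per library and the group mean with its SD as a bar, for lean and obese tumors at day 14 and day 21. Cxcl2 at day 14 shows obese libraries below all lean ones, Cxcl9 in obese day 14 tumors has 1 library at 19.6 CPM above the other 4, and Cxcl1 and Ccl2 are higher at day 21.

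Some leukocyte markers moved with diet at midpoint. Of 9 pan-leukocyte markers 3 passed as lower in obese tumors and 0 as higher by edgeR: Cd53 (-2.55), Lcp1 (-1.44) and Ptprc, which encodes the leukocyte antigen CD45 (-1.77). Of 16 macrophage markers 5 passed as lower and 0 as higher, among them the adhesion receptor Itgam (-1.66), and their summed level was 257 to 588 CPM in lean and 191 to 374 CPM in obese libraries. After the correction 2 of the pan-leukocyte and 2 of the macrophage markers passed as lower and 0 as higher. Of 10 tested T and NK cell markers 1 passed as higher (the T cell kinase Lck, 0.77) and 0 as lower, with a median of 0.41, and 0 passed after the correction. Of 4 tested neutrophil markers 0 passed, with a median of 0.27, and 1 passed as higher after the correction. With the mean of the 9 pan-leukocyte markers as covariate 0 members passed by edgeR, as did 0% of all genes in each direction, so the loss is not particular to the members. In that fit Cxcl2 was at -0.71 ± 0.37 (SE; adjusted p = 0.181), Cxcl9 at -1.78 ± 0.90 (SE; adjusted p = 0.17) and Ccl2 at -0.37 ± 0.20 (SE; adjusted p = 0.193). Cxcl16 moved from -0.74 to 0.05 ± 0.23 (SE; edgeR adjusted p = 0.888). In such bulk libraries, fewer cells of a type and less RNA per cell cannot be told apart. The part of leukocyte RNA in these differences was not tested beyond this covariate.

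**Figure D3:**
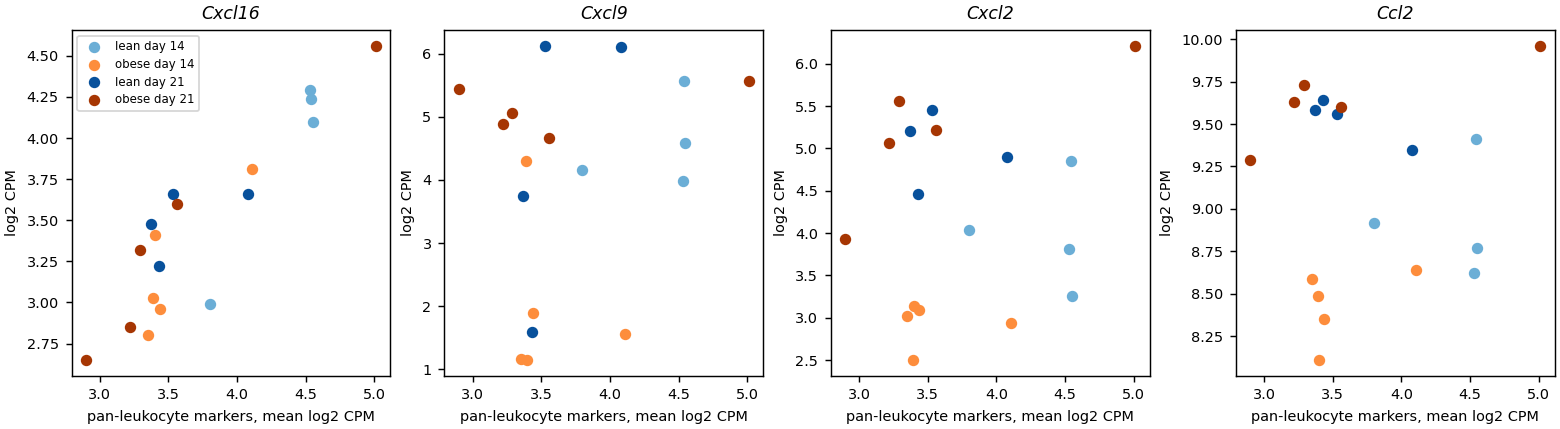
Level (log2 CPM) of Cxcl16, Cxcl9, Cxcl2 and Ccl2 against the average of 9 pan-leukocyte markers (log2 CPM), with 1 point per library and colors for the 4 groups. Cxcl16 is high where the markers are high, up to obese day 21 replicate 4 at 23.5 CPM, whereas most day 21 libraries lie above the day 14 ones for Ccl2 at low and high marker levels alike.

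At endpoint 0 members passed in either direction between obese and lean tumors by edgeR, where 0.00612% of all genes (1 gene) passed as higher and 0% as lower. At unadjusted p under 0.05, 0 members and 800 genes passed, and with DESeq2 and limma-voom 0 members were called. The log2 fold changes ranged from -0.47 ± 0.86 (SE) for Cxcl12 to 0.33 ± 0.35 (SE) for Cxcl2, with a median of 0.03. Ccl2 was at 755, 768, 795 and 652 CPM in lean and at 625, 793, 851, 996 and 775 CPM in obese endpoint libraries, and Csf1 at 502, 505, 345 and 423 CPM and at 313, 418, 438, 465 and 460 CPM. Both genes overlapped between the groups. These misses do not show that the groups were alike: the SE was 0.17 for Ccl2 and Csf1 and 0.70 for Cxcl9 on the log2 scale.

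The diet differences at midpoint and endpoint were compared directly by the interaction of diet and time. By edgeR 0 members passed, where 0% of all genes passed as higher and 0% as lower, whereas 5451 genes and 2 members (Cxcl2 and Ccl2) had an unadjusted p under 0.05. DESeq2 called 1681 genes and 2 members, and limma-voom called 5119 genes and 2 members. The interaction was 1.48 ± 0.49 (SE; edgeR adjusted p = 0.0983) for Cxcl2, 0.64 ± 0.24 (SE; edgeR adjusted p = 0.106) for Ccl2 and 1.97 ± 1.00 (SE; edgeR adjusted p = 0.167) for Cxcl9. After the correction for GC content and length these values were 0.84, -0.03 and 1.55. Without obese midpoint replicate 1 the interaction passed for Cxcl2 (edgeR adjusted p = 0.0402) and Cxcl9 (3.13, edgeR adjusted p = 0.0166). The GC slopes of lean and obese midpoint libraries do not overlap without that replicate, so diet and GC trend cannot be told apart there.

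Endpoint and midpoint tumors were compared within each diet. In lean mice 4 members were higher at endpoint (Cxcl1, Cxcl5, Ccl2 and Csf1) and 0 were lower by edgeR, where 21.4% of all genes passed as higher and 9.5% as lower. In obese mice 7 members were higher (Cxcl1, Cxcl2, Cxcl5, Cxcl9, Ccl2, Ccl7 and Csf1) and 1 was lower (Ccl5), where 37.8% of all genes passed as higher and 36.1% as lower. The median log2 fold change over the members was 0.53 in lean and 0.98 in obese mice, against 0.04 and 0.00 over all genes. After the correction for GC content and length it was -0.18 in lean and 0.17 in obese mice, against -0.03 and -0.09. In lean mice 4 of the 10 members then lay above 0 and 6 below, and in obese mice 7 and 3. The group means of these comparisons use no library in common, but the spread was estimated from all 18 libraries together, so the tests are not independent. The comparison in obese mice also shares the obese midpoint libraries with the diet comparison at midpoint, and that in lean mice shares the lean ones.

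Cxcl1 was at 602, 596, 455 and 338 CPM in the lean endpoint libraries, all above the lean midpoint range of 146 to 295 CPM. It rose in lean mice by 1.11 ± 0.31 (SE; edgeR adjusted p = 0.0116), a call kept without each of the 18 libraries in turn. In obese endpoint libraries it was at 295, 506, 550, 700 and 448 CPM, above the obese midpoint range of 83.1 to 245 CPM, and rose by 1.43 ± 0.28 (SE; edgeR adjusted p = 0.000133). Cxcl2 was at 43.5, 36.7, 22.0 and 29.8 CPM in lean endpoint libraries, a range that overlapped with midpoint (0.94 ± 0.37, SE; edgeR adjusted p = 0.0566). That result passed without lean midpoint replicate 3 (edgeR adjusted p = 0.0171), obese endpoint replicate 1 (0.0304) or 4 (0.0438), or obese midpoint replicate 1 (0.0477). In obese endpoint libraries Cxcl2 was at 15.2, 33.2, 47.2, 74.2 and 37.2 CPM, all above the obese midpoint range. It rose in obese mice by 2.42 ± 0.34 (SE; edgeR adjusted p = 5.64e-06). Cxcl5, the least abundant of these 3 ligands, reached 0.742 to 2.26 CPM in lean and 0.515 to 4.07 CPM in obese endpoint libraries. It rose by 1.47 ± 0.49 (SE; edgeR adjusted p = 0.0295) and 2.32 ± 0.46 (SE; edgeR adjusted p = 0.00015), although the lowest endpoint library of each diet lay within the midpoint range. The lean call of Cxcl5 was lost without lean midpoint replicate 1 or 2 or lean endpoint replicate 1, 2 or 3 (edgeR adjusted p of 0.0582 to 0.0875).

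Ccl2 rose by 0.57 ± 0.18 in lean (SE; edgeR adjusted p = 0.0239) and by 1.21 ± 0.17 in obese mice (SE; edgeR adjusted p = 3.83e-06). All obese endpoint libraries, from 625 CPM, lay above the obese midpoint ones, which reached 398 CPM, whereas in lean mice midpoint replicate 3 (681 CPM) lay above endpoint replicate 5 (652 CPM). The lean call of Ccl2 was lost without lean midpoint replicate 1, 2 or 4 or lean endpoint replicate 1, 2 or 3 (edgeR adjusted p of 0.0553 to 0.122). Ccl7 was at 350, 391, 318 and 274 CPM in lean and at 266, 416, 400, 513 and 365 CPM in obese endpoint libraries. Both ranges overlapped with midpoint, and Ccl7 had 0.18 ± 0.23 in lean (SE; edgeR adjusted p = 0.576) and rose by 0.75 ± 0.21 in obese mice (SE; edgeR adjusted p = 0.00321). Ccl5 went the other way. It was at 10.3, 3.62, 2.08 and 7.03 CPM in lean endpoint libraries (-0.70 ± 0.33, SE; edgeR adjusted p = 0.105) and at 5.19, 6.24, 5.75, 6.16 and 4.53 CPM in obese ones. The obese endpoint libraries all lay below the obese midpoint minimum of 7.04 CPM, a change of -0.76 ± 0.29 (SE; edgeR adjusted p = 0.0255). That call was lost without obese endpoint replicate 5 (0.0606) or obese midpoint replicate 2 (0.0693, edgeR adjusted p), and the lean value passed without lean endpoint replicate 1 (-1.16, edgeR adjusted p = 0.0115). Markers of leukocytes moved over time as well. Of 10 tested T and NK cell markers, all 10 lay below 0 in both diets, and 4 fell in lean and 7 in obese mice by edgeR (6 and 8 after the correction), with medians of -1.03 and -1.68. Their summed level was 8.48 to 12.7 CPM in lean and 8.33 to 20.2 CPM in obese midpoint libraries, and 2.58 to 6.09 CPM and 4.22 to 8.62 CPM at endpoint. Lck fell by 1.15 in lean and 1.30 in obese mice. Of 9 pan-leukocyte markers 0 rose and 5 fell in lean, and 3 rose and 4 fell in obese mice (0 and 2, and 0 and 1, after the correction). Of 16 macrophage markers 1 rose and 2 fell in lean, and 4 rose and 0 fell in obese mice. With the pan-leukocyte covariate Ccl5 was at -0.77 ± 0.30 in obese mice (SE; edgeR adjusted p = 0.0252). The mean of those 9 markers in obese mice was 3.54 at midpoint and 3.6 at endpoint (log2 CPM). It did not follow the T and NK cell markers, so that fit does not test a part of T and NK cells. The part of these cells in the changes of the members was not tested.

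Cxcl9 in lean endpoint libraries split widely, at 69.6, 13.3, 2.97 and 69.0 CPM, with no change passing (0.57 ± 0.74, SE; edgeR adjusted p = 0.567). In obese endpoint libraries it was at 43.4, 29.6, 33.4, 47.0 and 25.2 CPM, all above the obese midpoint libraries, and rose by 2.54 ± 0.70 (SE; edgeR adjusted p = 0.00301). Without obese midpoint replicate 1 the rise was 3.70 (edgeR adjusted p = 3.71e-05). Cxcl16 was at 12.6, 11.1, 9.30 and 12.6 CPM in lean and at 6.22, 7.18, 9.92, 23.5 and 12.1 CPM in obese endpoint libraries. Both ranges overlapped with midpoint, and neither change passed (-0.47 in lean and 0.31 in obese mice). Obese endpoint replicate 4, the highest for Cxcl16, also had the highest summed pan-leukocyte level (377 CPM) and macrophage level (778 CPM) of its group. Cxcl12 stayed near the floor, with 2 to 12 counts in an endpoint library and no change passing (-0.19 ± 0.85 in lean and 0.35 ± 0.85 in obese mice, SE).

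Csf1 rose by 0.49 ± 0.18 in lean (SE; edgeR adjusted p = 0.0446) and by 0.57 ± 0.16 in obese mice (SE; edgeR adjusted p = 0.00341). Its mean went from 316 ± 49.3 (SD, n = 4) to 444 ± 76.0 CPM (SD, n = 4) in lean and from 282 ± 44.5 (SD, n = 5) to 419 ± 62.2 CPM (SD, n = 5) in obese mice. In both diets the lowest endpoint library lay within the midpoint range. The lean call was close to the threshold: in 13 of the 18 fits that leave out 1 library its edgeR adjusted p was over 0.05, at 0.158 or less. The call in obese mice was kept in all 18.

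After the correction for GC content and length, 1 member passed as higher and 0 as lower in lean mice, where 12.3% of all genes passed as higher and 11.8% as lower. In obese mice 2 members passed as higher and 1 as lower, where 25.6% and 32.2% of all genes passed. Csf1, the member with the highest GC content, had larger changes after the correction, 0.69 ± 0.17 in lean (SE; edgeR adjusted p = 0.00737) and 0.98 ± 0.15 in obese mice (SE; edgeR adjusted p = 2.32e-05). Cxcl2 was still higher in obese mice, by 1.25 ± 0.35 (SE; edgeR adjusted p = 0.00449). Ccl7 turned from 0.75 to -0.77 ± 0.27 (SE; edgeR adjusted p = 0.0196). The correction widened the spread of Ccl7 within groups. Its SD of log2 CPM went from 0.47 to 0.73 in obese midpoint and from 0.35 to 0.38 in obese endpoint libraries. Whether the GC trend of all genes applies to Ccl7 was not tested. The other calls did not pass after the correction. In obese mice Cxcl9 had 1.23 ± 0.57 (SE; edgeR adjusted p = 0.0681), Cxcl5 0.45 ± 0.48 (SE; 0.441), Cxcl1 0.17 ± 0.33 (SE; 0.673), Ccl5 -0.18 ± 0.28 (SE; 0.612) and Ccl2 -0.08 ± 0.17 (SE; 0.714). In lean mice Cxcl1 had 0.53 ± 0.36 (SE; edgeR adjusted p = 0.299), Cxcl5 0.63 ± 0.52 (SE; 0.393) and Ccl2 -0.05 ± 0.19 (SE; 0.88). Time point and GC trend cannot be fully told apart here, since the slopes of midpoint and endpoint libraries did not overlap.

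**Figure D4:**
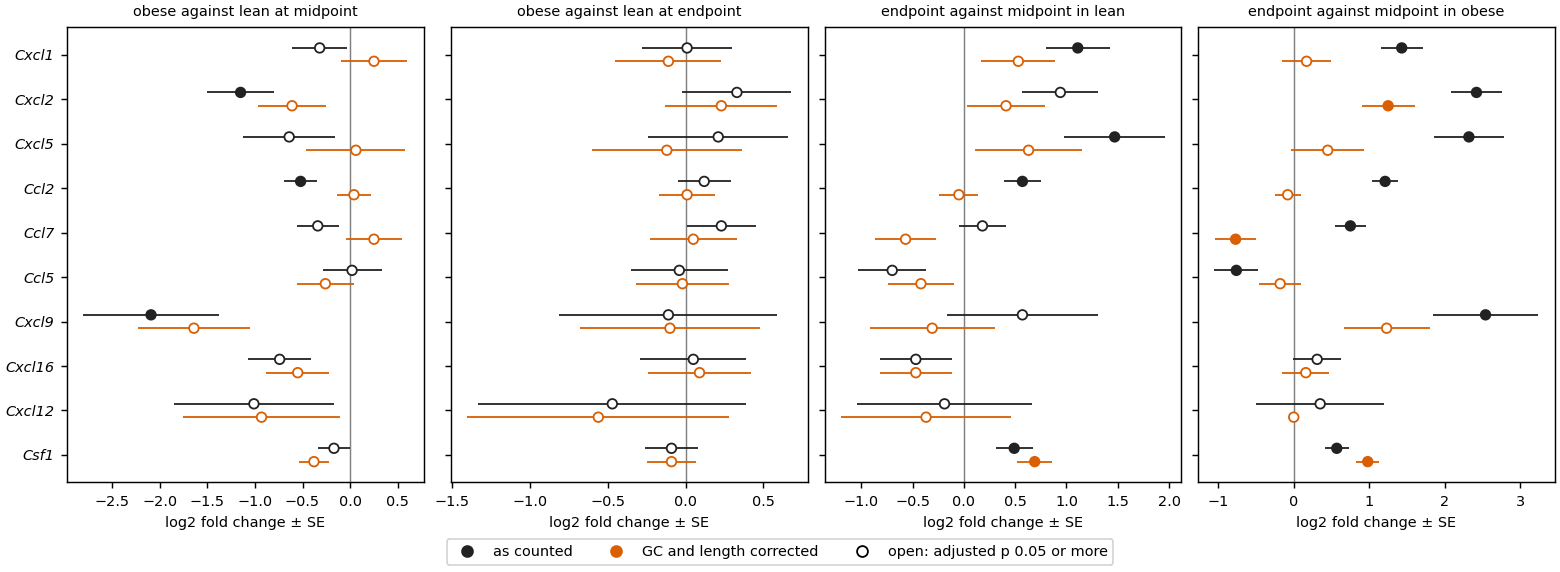
Log2 fold change of each of the 10 genes in the 4 comparisons between groups, with SE as bars, as counted (black) and after correction for GC content and length (orange), and filled points where the edgeR adjusted p is under 0.05. Csf1 is filled under both in the time comparisons, Ccl7 changes side in obese mice, and no gene is filled between diets at endpoint; the bar of the corrected Cxcl12 in obese mice (0.00 ± 2.99) is not drawn.

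On the part of the genome that the left-out lean endpoint replicate 4 covers, its levels could be set beside the other lean endpoint replicates, in CPM of that part. Cxcl1 was at 1100 in replicate 4 and at 2410, 2720, 1970 and 1540 in the others, so it was the lowest and lay within the lean midpoint range of 691 to 1320. Cxcl2 was at 89.1 against 174, 168, 95.4 and 136, and Cxcl5 at 3.36 against 7.58, 10.2, 9.78 and 3.38. Cxcl9 was at 234 in replicate 4, beside the high replicates 1 (279) and 5 (314) and above replicates 2 (60.8) and 3 (12.8). Csf1 was at 1660, between 1500 and 2310. In a fit of these genes with all 19 libraries, Cxcl2 (-1.07, edgeR adjusted p = 0.0278) and Cxcl9 (-2.08, edgeR adjusted p = 0.0287) still passed at midpoint. Cxcl1 still passed over time in lean mice (0.87, edgeR adjusted p = 0.0335), and Csf1 did not (0.36, edgeR adjusted p = 0.0977).

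The other chemokine genes form a list of 28, of which 18 were tested. At midpoint 3 were lower in obese tumors and 0 higher by edgeR: Ccl12 (-1.30), a monocyte attractant, and the Cxcr3 ligands Cxcl10 (-0.88) and Cxcl11 (-1.45). Over all genes 16.7% were higher and 12.8% lower in that comparison, 21.4% and 9.5% over time in lean mice, and 37.8% and 36.1% over time in obese mice. After the correction these shares were 8.28% and 3.63%, 12.3% and 11.8%, and 25.6% and 32.2%. They are the background for the gene lists as well. After the correction these 3 did not pass (Cxcl10 at -0.52, edgeR adjusted p = 0.178), and 1 of the 18 did: Cx3cl1 (-0.91, edgeR adjusted p = 0.0366), named after its value was seen. Over time in obese mice 6 rose and 2 fell (2 and 4 after the correction). Cxcl3, a further neutrophil attractant, rose by 3.15 ± 0.67 (SE; edgeR adjusted p = 0.000336, and 1.52, adjusted p = 0.0472, after the correction), Ppbp, a platelet chemokine, by 2.80 and Cxcl10 by 1.16. After the correction Ppbp (edgeR adjusted p = 0.136) and Cxcl10 (0.0711) did not pass in obese mice. In lean mice 1 rose (Ppbp, 2.15) and 2 fell, Ccl4 (-1.42) and Ccl22 (-1.43). After the correction 0 rose and 4 fell in lean mice (Ccl4, Ccl11, Ccl12 and Ccl25, listed after their values were seen), and Ppbp (edgeR adjusted p = 0.159) and Ccl22 (0.0681) did not pass. Of 4 other colony stimulating factor genes tested, Csf2, which encodes GM-CSF, rose by 2.08 in lean and 1.94 in obese mice. Kitl, the stem cell factor gene, rose by 1.75 and 2.82, and Il34, the second ligand of Csf1r, fell by 0.93 in obese mice. After the correction none of these changes of Csf2, Kitl and Il34 passed, and Csf3, named after its value was seen, did in obese mice (1.52, edgeR adjusted p = 0.0177). Csf3 was low, with means of 0.792 ± 0.981 CPM in obese midpoint and 0.976 ± 0.504 CPM in obese endpoint libraries (SD, n = 5 each).

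Among 24 genes of chemokine receptors and Csf1r, 17 were tested. At midpoint 4 were lower in obese tumors and 0 higher, among them Cxcr4, the receptor of Cxcl12 (-1.71), and Ccr2, the receptor of Ccl2 and Ccl7 (-1.79). After the correction 1 of the 17 passed at midpoint, Cxcr4 (-1.23, edgeR adjusted p = 0.041). Over time in obese mice 5 rose and 2 fell, and after the correction 0 rose and 1 fell (Xcr1, -2.47, named after its value was seen). Xcr1 was near the floor, with means of 0.205 CPM in obese midpoint and 0.148 CPM in obese endpoint libraries. Csf1r was at 16.4 ± 5.25 (SD, n = 4) and 13.5 ± 5.48 CPM (SD, n = 5) in lean and obese midpoint tumors, and at 9.97 ± 3.11 (SD, n = 4) and 9.22 ± 7.36 CPM (SD, n = 5) at endpoint, with no change passing. Cxcr2, the receptor of Cxcl1, Cxcl2 and Cxcl5, was under 1 CPM in all 18 libraries, as were 5 more of the 10 neutrophil markers.

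Of 24 NF-kB pathway genes, all tested, 5 were higher and 6 lower in obese midpoint tumors by edgeR. The lower ones included the kinase Map3k8 (-0.94), Nfkbiz (-0.74) and the ubiquitin ligase Birc3 (-0.89). The means of Rela and Nfkb2 went the other way. They were 257 ± 49.8 and 105 ± 19.1 CPM in lean midpoint tumors (SD, n = 4). In obese midpoint tumors they were 411 ± 139 and 172 ± 64.4 CPM (SD, n = 5). Over all genes 16.7% were higher and 12.8% lower. After the correction 0 of the 24 passed at midpoint. Over time 8 rose and 0 fell in lean mice, where 21.4% and 9.5% of all genes did. In obese mice 12 rose and 7 fell, where 37.8% and 36.1% of all genes did. The interleukin-1 receptor Il1r1 was at 1.98 and 2.86. The means of Rela and Nfkb2 were lower at endpoint, at 175 ± 41.6 and 84.8 ± 17.7 CPM in lean mice (SD, n = 4) and 178 ± 17.6 and 81.6 ± 6.91 CPM in obese mice (SD, n = 5). With the correction 5 rose (Il1r1, Chuk, Nfkbia, Nfkbib and Nfkbiz) and 1 fell (Il1b) in lean, and 12 rose and 3 fell in obese mice. Of 13 interferon-gamma pathway genes tested, 7 were lower and 0 higher in obese midpoint tumors, among them the receptor chain Ifngr1 (-0.83) and Cd274, which encodes the checkpoint ligand PD-L1 (-1.19). After the correction 1 of the 13 passed, Ifngr1 (-0.56, edgeR adjusted p = 0.0326). Over time in obese mice 8 of the 13 rose and 1 fell, and 7 rose and 1 fell after the correction, with the kinase Jak2 at 3.05 before and 1.48 after it. For all these lists 0 genes passed between diets at endpoint.

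The genes whose log2 CPM was most like that of each member over the 18 libraries were found by Pearson's r, given as a description because the libraries share groups and the GC trend. Cxcl2 was most like Tnfaip3, a feedback inhibitor of NF-kB (r = 0.975, and 0.966 after the correction). Next were the inflammasome sensor Nlrp3 (0.947, and 0.904) and the adhesion molecule Sele (0.942, and 0.807). Tnfaip3 was also closest to Ccl2 (0.964, and 0.537 after the correction), followed by Nfkbiz (0.959, but 0.037 after it) and Ago4 (0.956, and 0.413). Cxcl1 was most like Nfkbia, the NF-kB inhibitor (0.933, and 0.465 after the correction), Cxcl5 (0.929, and 0.86) and Tnfaip3 (0.918, and 0.807). The closest genes to Cxcl5 were Cxcl1, Tnfaip3 (0.927, and 0.755 after the correction) and Nfkbia (0.913, and 0.437). Csf1 was most like Nfkbia (0.92, and 0.975 after the correction), Lamb1, a laminin chain (0.916, and 0.928), and Cxcl2 (0.905, and 0.769).

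The other members had different neighbours in this measure. Cxcl9 was most like the interferon-induced GTPase genes Tgtp2 (0.978, and 0.961 after the correction), Tgtp1 (0.963, and 0.932) and Irgm1 (0.954, and 0.808). However, Tgtp1 and Tgtp2 are near-identical copies whose counts are uncertain. Ccl5 was most like Apol9a (0.91, and 0.675 after the correction), the immunoproteasome subunit Psmb9 (0.90, and 0.818) and Isg15, an interferon-induced ubiquitin-like protein (0.898, and 0.846). Cxcl16 was most like the sodium-calcium exchanger Slc8a1 (0.917, and 0.658 after the correction), Pik3r5, a regulatory subunit of a phosphoinositide kinase (0.916, and 0.763), and Galnt6 (0.913, and 0.886). Ccl7 was most like Abca9 (0.873, and 0.774 after the correction), Cxcl1 (0.862, and 0.493) and Ppp1r16b (0.846, and 0.364). Between members, r was 0.915 for Cxcl1 and Cxcl2 and 0.793 for Ccl2 and Ccl7, and 0.762 and 0.783 after the correction. Ccl5 had a negative r with Ccl2 (-0.609) and with Cxcl5 (-0.612) over the 18 libraries, and within groups these were -0.152 and -0.215. After the correction the values over the 18 libraries were -0.207 and -0.344. Cxcl12 is not described this way, because its counts were near 0.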

How the data were processed

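RNA was measured in mCherry-positive cells sorted from tumors of 4 groups, assigned from the labels. The authors deposited 1 table of whole-number counts per gene, not normalized, with 39017 genes in 19 libraries. Per the submitters' processing notes, TopHat, DESeq and mm10 were used, without versions or roles. How reads were counted, on which strand and against which annotation is not given in the sources used here. Among low counts of 1 to 20, 60.9% to 69.2% were even numbers in each library. The deposited table also gives each gene's length, used here for levels per kilobase and in the correction. GENCODE supplied symbols for 37607 genes, its longest transcript gave each gene's GC content, and gene positions are those of mm10.

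Lean endpoint replicate 4 was left out because its counts stop on chromosome 5. For the 18 remaining libraries edgeR 4.0.16 in R 4.3.3 was run on the counts (filterByExpr, 16352 genes, TMM, 1 mean per group, quasi-likelihood test, Benjamini-Hochberg at 0.05). Standard errors come from each fold change divided by the root of its F value. Log2 CPM used a prior count of 2. The correction for GC content and length used a spline trend per library (5 and 4 degrees of freedom) as an offset. Alternatives included DESeq2 1.42.0, limma 3.58.1 (voom with quality weights), RLE scaling, other filters, a pan-leukocyte covariate, a replicate block and leaving out each library; a fit with all 19 libraries up to part of chromosome 5 was added after the data had been seen. The procedure was tested on simulated data.

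The members and gene lists were chosen with earlier results of these data known. Every member is named; of other lists, at most the 3 genes with the smallest p per comparison among those called, and receptors and ligands named by role; for likeness, the 3 genes with the highest r among those at 1 CPM or more on average. The labels describe each library as cells of a separate tumor, so p-values measure the spread between tumors. Not every gene taken by the naming rule is reported here.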

Additional observations from a re-analysis of the deposited data

Results flagged for a closer look

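Cxcl9 in obese midpoint replicate 1 stood at 19.6 CPM, far above the other 4 libraries of its group (2.18 to 3.70 CPM). It was the only sample that lay this far from its group among 40 combinations of member and group checked, and chance alone flags about 1 in 20. The same library was the lowest of its group for Cxcl1 (83.1 CPM), Cxcl2 (5.61 CPM), Ccl7 (137 CPM) and Csf1 (226 CPM). It also had the lowest GC slope of its group (0.326, against 0.666 to 1.52 in the others).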

How the results depend on the processing

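At midpoint, where 4825 genes and 3 members passed, the counts of genes and members were 1947 and 0 with the correction for GC content and length, 0 and 0 with the compared groups alone, 0 and 0 with the pan-leukocyte covariate, and 1 and 0 with the replicate block and the correction together, and limma-voom called 8458 genes. At endpoint, where 1 gene passed, DESeq2 called 13, and 0 were called with the compared groups alone, limma-voom, the replicate block, or the block with the correction. For the interaction DESeq2 called 1681 genes and 2 members and limma-voom 5119 and 2, and a fit of the compared groups alone was not possible. In lean mice over time the members called were 4, and 1 with the correction, 2 with no filter and 1 with the block and the correction, which called 3022 genes. In obese mice they were 8, and 3 with the correction and 4 with the block and the correction. The same replicate numbers did not pair the libraries: over 24 same-numbered pairs the correlation of deviations ranged from -0.403 to 0.551, with 6 over 0.1, and in 5 of 18 libraries the closest library of another group had its own number. Leaving out each library in turn gave 0 to 7946 genes and 0 to 4 members at midpoint, 0 to 1 genes at endpoint, 0 to 5656 genes and 0 to 2 members for the interaction, 3251 to 6388 genes and 1 to 5 members in lean mice over time, and 11563 to 12390 genes and 7 to 8 members in obese mice.

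Over all alternatives, the sign differed from the reported one at least once for 6 of 10 members at midpoint, 9 between diets at endpoint (41 of 282 values), 7 for the interaction (27 of 272 values), 5 in lean and 3 in obese mice over time, and the cause was not tested. At midpoint Cxcl1, Cxcl5, Ccl2 and Ccl7 were at 0.25, 0.06, 0.04 and 0.25 with the correction, and at 0.16, 0.02, 0.05 and 0.20 with the block and the correction. There Cxcl1 was at 0.06 in limma-voom and Cxcl16 at 0.05 with the pan-leukocyte covariate. At endpoint Cxcl12 was at 0.40 in limma-voom, and Cxcl1 and Cxcl5 were at -0.11 and -0.12 with the correction. The interaction of Ccl2 was -0.03 with the correction and -0.07 with the block and the correction, and with the correction that of Cxcl1 was -0.36, of Cxcl5 -0.17, of Ccl7 -0.20 and of Ccl5 0.24. In lean mice over time Cxcl9, Ccl2 and Ccl7 were at -0.31, -0.05 and -0.57 with the correction and at -0.87, -0.01 and -0.54 with the block added, Cxcl16 was at 0.30 with the covariate, and Cxcl12 was at 0.01 with the block and the correction. With the block alone Cxcl9 was at -0.24 and Cxcl12 at 0.20. In obese mice over time Ccl2 and Ccl7 were at -0.08 and -0.77 with the correction and at -0.07 and -0.75 with the block added. Without single libraries, Cxcl12 ranged from -0.77 to 0.10 at endpoint and from -0.80 to 0.21 in lean mice over time, and Cxcl16 from -0.09 to 0.48 in obese mice. The median of all genes in the interaction was 0.102 with DESeq2, against 0.005 in the reported edgeR fit. Depth limits Cxcl12, with 0 to 16 counts, most.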
